A study of Mus musculus with 20 samples.

Results

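Skeletal muscle transcripts were measured in bone marrow and, for comparison, in kidney of mice given oxaliplatin or its vehicle. The members were 34 genes chosen by symbol, each matching 1 row of both raw count tables, out of 55486 genes in each table. C57BL/6 mice aged 10 weeks, of both sexes in the study as a whole, received 10 mg/kg oxaliplatin in 5% dextrose intraperitoneally, or 5% dextrose alone (vehicle), once a week for 8 weeks, and tissue was taken 6 days after the last dose. Each group was sequenced in 5 libraries per tissue, 20 in all. Total counts per library ran from 30660153 to 41140527 in marrow and from 24393007 to 30925430 in kidney. Whether the marrow and kidney libraries came from the same mice was not given in the sources used here, and p-values measure only the spread between these samples.

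A skeletal muscle fibre shortens when thick filaments of myosin pull on thin filaments of actin, which are anchored at Z discs. Calcium released through the ryanodine receptor starts the pull, and a calcium pump returns the ion to its store. Fast and slow fibres build the same machine from different myosin, troponin and pump isoforms. Skeletal muscle fibres are not a cell type of bone marrow, but muscle inserts on the tibia and femur. The marrow here was spun out of cut tibiae and femora. The dissection itself was not recorded in the files, and its part in the values that follow was not tested.

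The labelled tissues matched their defining genes. A set of 7 marrow genes led by Mpo, a neutrophil granule enzyme, summed to between 3147 and 4632 CPM in marrow and to between 18.1 and 27.7 CPM in kidney. A set of 6 kidney genes summed to between 14633 and 18822 CPM in kidney and to between 1.35 and 11.6 CPM in marrow. Gene coordinates are those of GENCODE M21 on GRCm38. CPM here are counts scaled to library size, with the trimmed mean of M values (TMM) as the scaling. The labels give no sex, and 4 Y-linked genes summed to between 99.0 and 173 CPM in marrow and between 77.4 and 110 CPM in kidney. None of the 20 libraries lacked them, as a library of female mice alone would.

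Promoters of Acta1 and Myh4, which lead the thin and thick filament genes per length in the treated marrow, are printed as a description. Their part in the values was not tested. Both windows are the 250 bases before the RefSeq start site (build GRCm38.p6), read 5′ to 3′ on the strand of the gene. Acta1, skeletal alpha actin, lies on the minus strand and its window is chr8:123894776-123895025. Myh4, the fast type IIb myosin heavy chain, lies on the plus strand and its window is chr11:67237562-67237811. Capitals mark matches to CAGCTG (an E box form), the CArG box, CATTCC and TATAAA on either strand.
Acta1: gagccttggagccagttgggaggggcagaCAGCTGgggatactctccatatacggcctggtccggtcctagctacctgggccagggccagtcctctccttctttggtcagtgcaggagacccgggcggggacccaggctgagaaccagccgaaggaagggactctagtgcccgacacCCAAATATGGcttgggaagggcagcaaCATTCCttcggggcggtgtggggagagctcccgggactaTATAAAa
Myh4: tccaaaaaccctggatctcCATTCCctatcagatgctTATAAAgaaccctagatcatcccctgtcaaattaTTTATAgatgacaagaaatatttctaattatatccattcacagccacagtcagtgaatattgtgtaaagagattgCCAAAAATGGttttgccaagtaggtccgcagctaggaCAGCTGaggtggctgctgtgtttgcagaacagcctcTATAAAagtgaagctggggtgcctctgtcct
Both windows held all 4 motifs, whereas the window of Ckm, read in the same way and not printed, held only CAGCTG. RefSeq windows were matched for 28 of the 34 members (33 windows among 32851 of all genes). CAGCTG occurred in 18 of the 33 member windows and in 4271 of all 32851 windows. The wider E box CANNTG, which contains every CAGCTG, occurred in 30 of 33 and in 66.2%. CATTCC occurred in 11 of 33 and in 12.6%, and TATAAA in 7 of 33 and in 12.4%. The CArG box occurred in the windows of Acta1, Myh4 and Myl3 and in 1.47% of all windows. The MEF2 motif occurred in that of Ttn and in 0.508%. A match of letters is a description and shows no binding.

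Libraries within each marrow group stood far apart in these genes. The 34 members summed to 176, 114, 479, 139 and 337 CPM in vehicle replicates 1 to 5 and 1027, 1033, 2495, 262 and 1183 CPM in oxaliplatin replicates 1 to 5. Oxaliplatin replicate 3 held the highest sum and oxaliplatin replicate 4 the lowest of the treated libraries. Oxaliplatin replicate 4 also lay under vehicle replicates 3 and 5, so the groups overlapped. In kidney the sums were 99.6, 111, 114, 110 and 108 CPM in vehicle replicates 1 to 5 and 115, 126, 123, 112 and 117 CPM in oxaliplatin replicates 1 to 5, and the highest library of each group was within 1.14 times of its lowest. In marrow these ratios of highest to lowest library were 4.20 in the vehicle group and 9.53 in the treated group. The kidney sums rested largely on Pgam2, which averaged 58.3 of 108 CPM in vehicle and 59.9 of 119 CPM in treated kidney. The 10 thick filament genes summed to only 1.79 and 2.51 CPM on average in vehicle and treated kidney. Their ratios of highest to lowest library were 2.52 and 2.26 in kidney, against 6.23 and 15.0 in marrow.

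**Figure D1:**
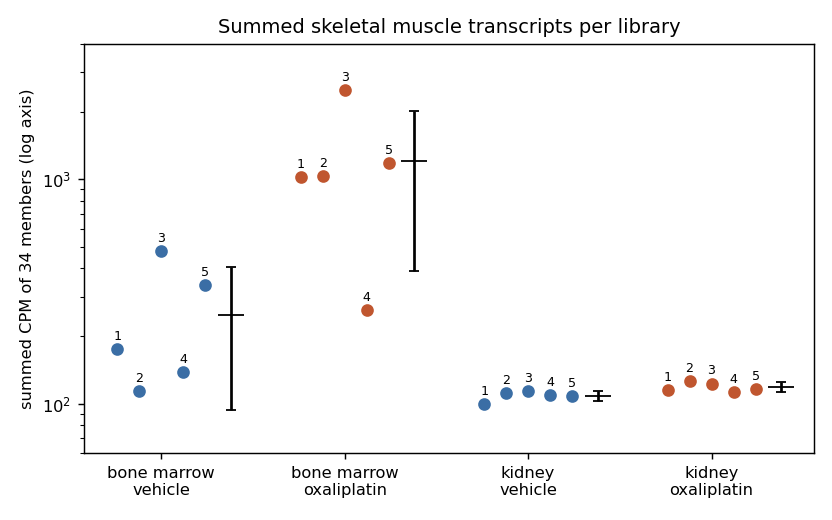
Summed CPM of the 34 members in each library (log axis), by tissue and treatment; points are libraries with their replicate numbers, and the bar beside them is the mean ± SD of 5 libraries. Treated marrow replicates 1, 2, 3 and 5 sit above every vehicle library, and replicate 4 at 262 CPM sits among them.

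The mean sum was 249 ± 155 CPM (SD, n = 5) in vehicle marrow and 1200 ± 809 CPM (SD, n = 5) in treated marrow, a ratio of 4.82. Without oxaliplatin replicate 3 the ratio was 3.52, without oxaliplatin replicate 4 it was 5.76, and without vehicle replicate 3 it was 6.27. As a share of all counts, the members took 0.0108% to 0.0454% in vehicle marrow and 0.0291% to 0.260% in treated marrow. In bulk RNA a change in the number of cells of a type and a change in RNA per cell cannot be told apart.

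Oxaliplatin replicate 3 also stood apart in Ptprc, the gene of the pan-leukocyte antigen CD45, which was 163 CPM, against 343 to 618 CPM in the other treated libraries and 533 to 709 CPM in vehicle. Mpo went the other way, at 2098 CPM in this library, against 1295 to 1805 CPM in the other treated libraries and 1543 to 1863 CPM in vehicle. Of the 31 members that passed the filter on low counts, 28 were highest in this library among all 10. Oxaliplatin replicate 4 was lowest of the treated libraries for 30 of 31, and lay under both vehicle replicates 3 and 5 for 19 of 31. Among the vehicle libraries replicate 3 was highest for 26 of 31 and replicate 2 lowest for 17 of 31.

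**Figure D2:**
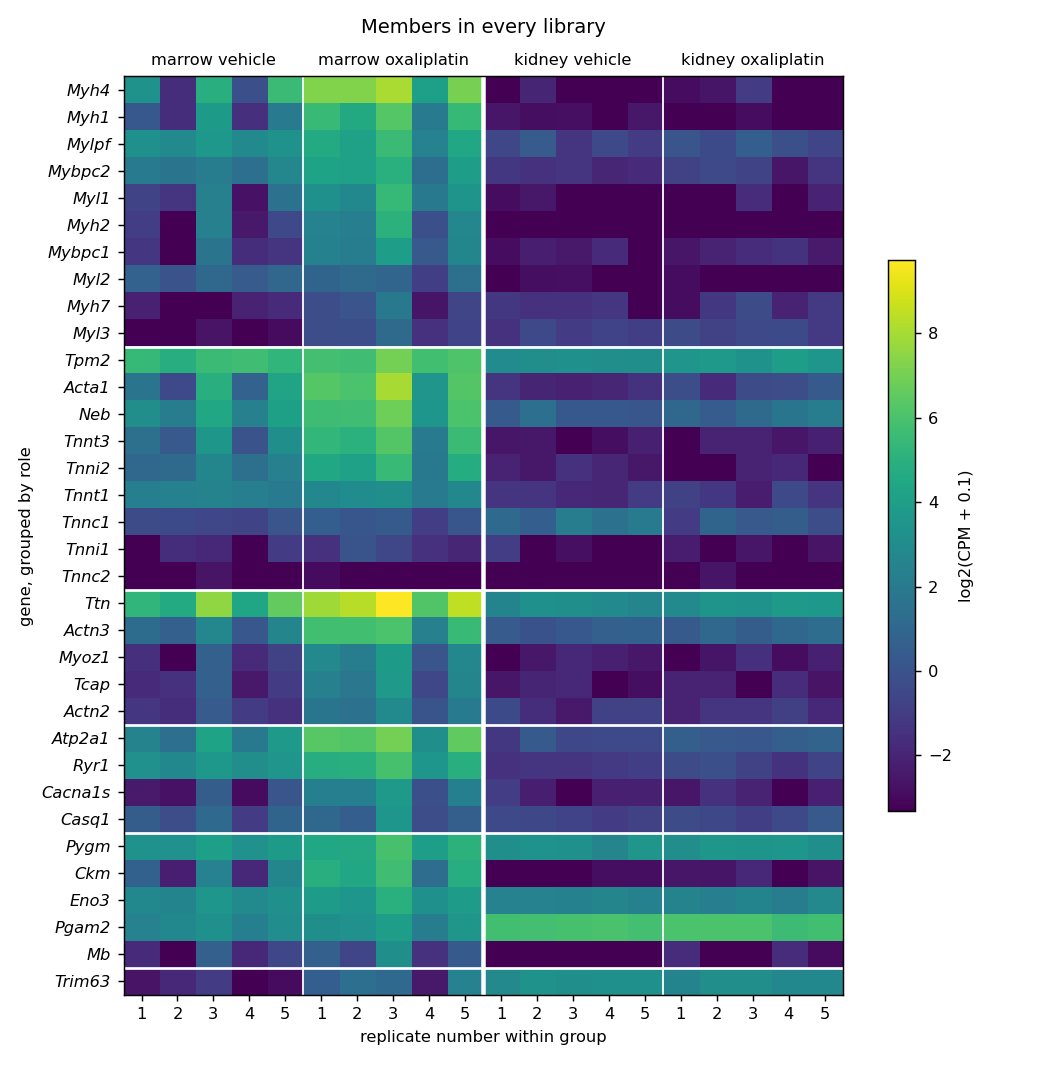
Level of each of the 34 members, as log2(CPM + 0.1), in all 20 libraries; rows are genes grouped by role, columns are replicates 1 to 5 of each group, and brighter means higher. Among the marrow columns, treated replicate 3 is the brightest for 28 of the 31 tested members, while Pgam2 and Trim63 are brighter in kidney than in vehicle marrow.

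In marrow, 23 of the 34 members rose with oxaliplatin and 0 fell, as tested in edgeR (quasi-likelihood) with p-values adjusted by Benjamini-Hochberg over 22363 genes. A gene was called at adjusted p under 0.05 and a change over 1.5-fold, and 11.6% of all tested genes were called higher and 11.8% lower. All 31 tested members had a positive fold change, against 47.1% of all tested genes, with a negative one in 52.9%. At an unadjusted p under 0.05, 0 members were lower against 21.7% of all tested genes, and 27 were higher against 20.8%. DESeq2 called 25 higher and 0 lower. The median log2 fold change of the tested members was 2.91, against -0.04 over all tested genes. Only 18 of the 31 exceeded 0.287 CPM (10 counts in the median library) in all 5 vehicle libraries, and 30 of 31 did so in all 5 treated libraries. Tnnc2, Tnni1 and Myh7 did not pass the filter.

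The count rested on single libraries. It was 12 without oxaliplatin replicate 3 and 14 without vehicle replicate 1, and it was 28 without oxaliplatin replicate 4. Groups without any overlap between their 5 libraries were found for 2 of 31 members, Myl3 and Tpm2, against 11.4% of all tested genes. Treated replicate 4 lay under at least 1 of vehicle replicates 3 and 5 for 29 of 31 members, and above every vehicle library for 2. The same 12 genes with the smallest p-values were called whenever any 1 library was left out, in each such fit that tested them: Myl3, Actn2, Actn3, Ryr1, Tnni2, Myoz1, Trim63, Pygm, Atp2a1, Tcap, Mybpc2 and Cacna1s.

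**Figure D3:**
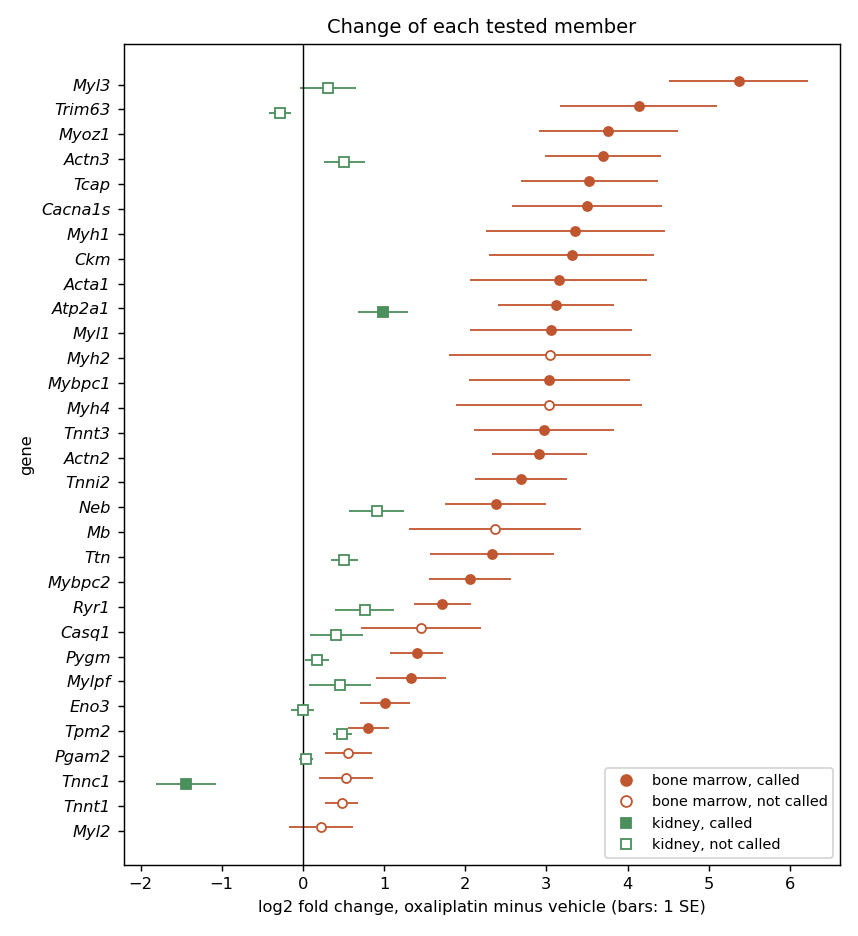
Log2 fold change, oxaliplatin minus vehicle, of each member tested in marrow (circles) and, where tested, in kidney (squares); bars are 1 SE and filled symbols are called. Marrow values run from 0.22 for Myl2 to 5.37 for Myl3, and kidney values from -1.44 for Tnnc1 to 0.99 for Atp2a1.

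Among the 10 thick filament genes, 9 were tested and 6 rose: Myl3, Mybpc2, Mylpf, Mybpc1, Myl1 and Myh1. Myh4 (chr11:67238029-67260446) was the most abundant of them in marrow. It was 10.3, 0.233, 29.8, 0.797 and 47.8 CPM in vehicle replicates 1 to 5 and 155, 152, 267, 16.5 and 135 CPM in oxaliplatin replicates 1 to 5. The vehicle libraries alone differed 206-fold between their highest and lowest, and treated replicate 4 lay among them. Its change was not called (log2 fold change 3.03 ± 1.15, SE, n = 5 per group, adjusted p = 0.0694), although DESeq2 gave adjusted p = 0.0288. With any 1 library left out the adjusted p ran from 0.0354 to 0.157, and it passed 0.05 only without vehicle replicate 5 or oxaliplatin replicate 4.

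Myl3 (chr9:110741861-110769798) is the slow and ventricular essential light chain. It was 0, 0, 0.0629, 0 and 0.0325 CPM in vehicle replicates 1 to 5 and 0.748, 0.783, 2.19, 0.267 and 0.512 CPM in oxaliplatin replicates 1 to 5. Every treated library was above every vehicle library. All vehicle libraries together held 3 counts of Myl3 and the treated ones 176, a ratio per total counts of 55.7 with a 95% counting interval (exact binomial) of 18.8 to 273 (log2 fold change 5.37 ± 0.85, SE, n = 5 per group, adjusted p = 0.000325). The counting interval leaves out the spread between libraries. The fitted fold change rests on vehicle libraries at or under 3 counts each and is no exact size. Its level remained low even when treated, with a median of 0.366 CPM per kilobase of exon against 25.2 for Myh4.

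Mybpc2 (chr7:44501699-44524656), the fast isoform of myosin-binding protein C, was 4.27, 3.11, 4.41, 2.59 and 6.39 CPM in vehicle replicates 1 to 5 and 18.7, 17.5, 31.2, 2.53 and 16.1 CPM in oxaliplatin replicates 1 to 5. Treated replicate 4 lay under all 5 vehicle libraries and the other 4 above them (log2 fold change 2.05 ± 0.50, SE, n = 5 per group, adjusted p = 0.00851). Mylpf, the fast regulatory light chain, rose 2.52-fold from a vehicle level of 9.37 ± 2.09 CPM (SD, n = 5). Mybpc1, Myl1 and Myh1 rose by 3.04, 3.06 and 3.36 on the log2 scale, with adjusted p-values of 0.0357, 0.0385 and 0.0404. Without oxaliplatin replicate 3, and without several other libraries, these 3 and Mylpf were not called (adjusted p up to 0.12, 0.139, 0.11 and 0.101). Myh2, the type IIa heavy chain, had a log2 fold change of 3.04 at adjusted p = 0.087. Myl2, the slow regulatory light chain, had one of 0.22 at adjusted p = 0.718, with vehicle and treated means of 1.53 and 1.79 CPM. Myh7, the slow heavy chain, did not pass the filter. It had 15 counts over the vehicle and 245 over the treated libraries, a ratio per total counts of 15.5 (95% counting interval 9.22 to 28.1). That interval leaves out the spread between libraries. Oxaliplatin replicate 3 held 163 of the 245 treated counts of Myh7. Oxaliplatin replicate 4 held 3 (0.0667 CPM) and lay under vehicle replicates 1, 4 and 5 (0.126, 0.142 and 0.195 CPM). Reads of the closely related Myh1, Myh2 and Myh4 may be split or lost where their sequences are shared, so the division between them is uncertain.

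Adult myosin heavy chains mark fibre types: Myh4, Myh1 and Myh2 the fast types, and Myh7 the slow type. Of the summed counts of these 4 genes, Myh4 took 69.8% (95% Wilson interval 69.1 to 70.5) in oxaliplatin replicate 3 and 76.9% (74.1 to 79.4) in oxaliplatin replicate 4. Over the 5 treated libraries its share ran from 69.8% to 83.6%, or from 71.8% to 84.7% when each count was divided by exon length. Vehicle replicates 3 and 5, with 1543 and 1621 such counts, gave Myh4 61.3% (58.9 to 63.7) and 90.9% (89.4 to 92.2). Myh7 held 0.991% in oxaliplatin replicate 3 and at most 0.553% in the other treated libraries. Vehicle replicates 2 and 4, with 16 and 45 counts in all, had wide intervals for Myh4, 28.0 to 72.0% and 47.6 to 74.9%. These intervals cover counting error only.

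**Figure D4:**
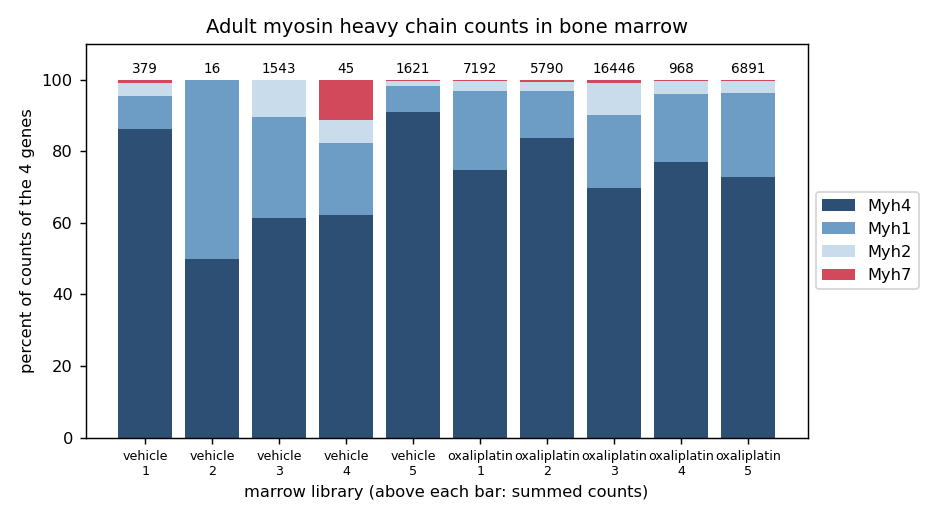
Share of counts taken by Myh4, Myh1, Myh2 and Myh7 in each marrow library, with the summed counts of the 4 genes above each bar. Myh4 takes most counts in every library except vehicle replicate 2, which has 16 counts, and the treated libraries range from 968 to 16446 counts.

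Among the 9 thin filament genes, 7 were tested and 5 rose: Tnni2, Neb, Tnnt3, Tpm2 and Acta1. Tpm2 (chr4:43514711-43523765), beta tropomyosin, had the highest mean CPM of them over the 10 marrow libraries. It was 43.4, 28, 47, 53.1 and 38 CPM in vehicle replicates 1 to 5 and 56.7, 53.6, 129, 55.8 and 70.8 CPM in oxaliplatin replicates 1 to 5. All treated libraries lay above all vehicle libraries, replicates 1, 2 and 4 just above the highest of these (log2 fold change 0.80 ± 0.25, SE, n = 5 per group, adjusted p = 0.028). Without oxaliplatin replicate 3 its fold change was no longer called, as without vehicle replicates 1, 2 or 5 (adjusted p up to 0.0646, log2 fold change down to 0.50).

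Tnni2 (chr7:142441808-142444410), the fast inhibitory troponin subunit, was 1.96, 2.15, 6.17, 2.68 and 5 CPM in vehicle replicates 1 to 5 and 22.9, 17.4, 44.5, 3.82 and 26.9 CPM in oxaliplatin replicates 1 to 5. Treated replicates 1, 2, 3 and 5 were above every vehicle library, and replicate 4 was among them (log2 fold change 2.69 ± 0.56, SE, n = 5 per group, adjusted p = 0.00337). Tnnt3, its fast tropomyosin-binding partner, rose 7.82-fold at adjusted p = 0.0229. Without oxaliplatin replicate 3 or vehicle replicate 1 Tnnt3 was not called (adjusted p up to 0.0762).

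Acta1 (chr8:123891769-123894751) had the highest level per length of all members in treated marrow, a median of 49.6 CPM per kilobase with a range of 7.19 to 167. It was 3.16, 0.639, 30.3, 1.65 and 19.4 CPM in vehicle replicates 1 to 5 and 77.6, 66.1, 257, 11 and 76.3 CPM in oxaliplatin replicates 1 to 5. Treated replicate 3 was far above the rest and replicate 4 lay under vehicle replicates 3 and 5 (log2 fold change 3.15 ± 1.09, SE, n = 5 per group, adjusted p = 0.0491). The call was lost when any 1 of 8 of the 10 libraries was left out, with adjusted p up to 0.151, and was kept only without vehicle replicate 3 or oxaliplatin replicate 4. Neb, the nebulin ruler of the thin filament, rose 5.19-fold, and without oxaliplatin replicate 3 its adjusted p was 0.0538.

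The slow troponins were not called. Tnnt1 had a log2 fold change of 0.48 at adjusted p = 0.0884, and Tnnc1, the slow and cardiac calcium-binding subunit, one of 0.53 at adjusted p = 0.255. Tnnc1 (chr14:31208312-31211729) was 0.727, 0.668, 0.598, 0.541 and 0.974 CPM in vehicle replicates 1 to 5 and 1.38, 1.03, 1.21, 0.422 and 1.02 CPM in oxaliplatin replicates 1 to 5, and the groups overlapped through treated replicate 4. Tnni1, the slow inhibitory subunit, had 26 counts over the vehicle and 82 over the treated libraries. Tnnc2, the fast calcium-binding subunit, had 2 and 1 counts, at or under the 3-count floor of 0.0667 to 0.0974 CPM. In the GENCODE M21 annotation 74.0% of the exon bases of Tnnc2 are shared with Ube2c on the opposite strand. Where a base belongs to both genes, its reads could not be told apart without the strand, and the strand setting of the counting was not given in the sources used here.

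All 5 genes of the Z disc and titin were tested and rose. Ttn (chr2:76703980-76982547), the giant spring of the sarcomere, was 38.1, 25, 189, 20.3 and 96.6 CPM in vehicle replicates 1 to 5 and 238, 325, 853, 73.5 and 359 CPM in oxaliplatin replicates 1 to 5. It had the most counts of any member, and per length it stood at a median of 2.78 CPM per kilobase in treated marrow, between Tnnt1 and Neb (log2 fold change 2.32 ± 0.76, SE, n = 5 per group, adjusted p = 0.0394). Its call was kept only without vehicle replicate 3 or oxaliplatin replicate 4, and the adjusted p was up to 0.138 otherwise.

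Actn3 (chr19:4861216-4877909), the alpha actinin of fast fibres, was 2.34, 1.48, 6.39, 1.05 and 6.07 CPM in vehicle replicates 1 to 5 and 55.5, 54.8, 64.9, 5.11 and 43.7 CPM in oxaliplatin replicates 1 to 5. Its treated replicates 1, 2 and 3 were of similar height, unlike those of Acta1 and Ttn (log2 fold change 3.70 ± 0.71, SE, n = 5 per group, adjusted p = 0.00241). Actn2 (chr13:12269426-12340760), the alpha actinin of all fibres, was 0.316, 0.233, 1.26, 0.399 and 0.26 CPM in vehicle replicates 1 to 5 and 3.25, 2.79, 7.54, 0.934 and 4.09 CPM in oxaliplatin replicates 1 to 5 (log2 fold change 2.91 ± 0.58, SE, n = 5 per group, adjusted p = 0.00197). For both genes treated replicate 4 lay under vehicle replicate 3.

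Myoz1 (chr14:20649107-20656540), a calcineurin-binding protein of fast fibres, was 0.253, 0, 1.48, 0.199 and 0.487 CPM in vehicle replicates 1 to 5 and 7.08, 4.51, 13.6, 0.978 and 6.52 CPM in oxaliplatin replicates 1 to 5 (log2 fold change 3.76 ± 0.86, SE, n = 5 per group, adjusted p = 0.00558). Tcap (chr11:98383811-98384953), which caps titin, was 0.19, 0.262, 1.51, 0.0854 and 0.389 CPM in vehicle replicates 1 to 5 and 5.01, 3.51, 13, 0.578 and 5.98 CPM in oxaliplatin replicates 1 to 5 (log2 fold change 3.53 ± 0.84, SE, n = 5 per group, adjusted p = 0.0072). Both were at or under 0.487 CPM in vehicle replicates 1, 2, 4 and 5 and stood out in vehicle replicate 3, which lay above treated replicate 4.

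All 4 calcium handling genes were tested and 3 rose. Atp2a1 (chr7:126445858-126463108), the fast calcium pump SERCA1, was 5.72, 2.67, 19.2, 3.73 and 13 CPM in vehicle replicates 1 to 5 and 80.5, 73.4, 129, 8.89 and 91.9 CPM in oxaliplatin replicates 1 to 5. Treated replicates 1, 2, 3 and 5 were at least 73.4 CPM, no vehicle library passed 19.2 CPM, and treated replicate 4 lay among the vehicle libraries (log2 fold change 3.12 ± 0.72, SE, n = 5 per group, adjusted p = 0.00691). In the annotation 21.9% of its exon bases are shared with other genes, mainly Rabep2 on the opposite strand.

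Ryr1 (chr7:29003344-29125179), the calcium release channel, was 9.58, 6.77, 12.4, 8.71 and 10.9 CPM in vehicle replicates 1 to 5 and 28.1, 29.7, 60.5, 11.5 and 29.4 CPM in oxaliplatin replicates 1 to 5. Vehicle libraries lay within a 1.83-fold range, and treated replicate 4 was just under vehicle replicate 3 (log2 fold change 1.72 ± 0.35, SE, n = 5 per group, adjusted p = 0.00266). Cacna1s (chr1:136052750-136119822), the voltage sensor that opens it, was 0.0948, 0.0581, 1.35, 0.0285 and 0.974 CPM in vehicle replicates 1 to 5 and 4.89, 4.79, 12.7, 0.8 and 4.93 CPM in oxaliplatin replicates 1 to 5, with vehicle replicates 3 and 5 above the other vehicle libraries and above treated replicate 4 (log2 fold change 3.50 ± 0.92, SE, n = 5 per group, adjusted p = 0.0127). Vehicle replicates 1, 2 and 4 held 3, 2 and 1 counts of Cacna1s, so its fitted fold change is no exact size. Casq1, the calcium store protein, was 11.7 CPM in oxaliplatin replicate 3 and at most 2.11 CPM in the other 9 libraries, and was not called (adjusted p = 0.161).

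All 5 energy genes were tested and 3 rose, namely Pygm, Eno3 and Ckm. Pygm (chr19:6384399-6398459), muscle glycogen phosphorylase, was 10.1, 9.65, 16.3, 9.65 and 13.8 CPM in vehicle replicates 1 to 5 and 22.7, 23.6, 61.2, 15.9 and 33.8 CPM in oxaliplatin replicates 1 to 5. Treated replicate 4 lay just under vehicle replicate 3 and the other treated libraries were above all vehicle libraries (log2 fold change 1.40 ± 0.33, SE, n = 5 per group, adjusted p = 0.00598). Ckm, muscle creatine kinase, rose 9.94-fold from 2.71 ± 2.95 CPM (SD, n = 5), and was not called without oxaliplatin replicate 3, 1 or 5 or vehicle replicate 1 (adjusted p up to 0.0897). Eno3, muscle enolase, rose 2.01-fold, a call lost without vehicle replicate 1, 2 or 4 (adjusted p up to 0.0628). Mb, the oxygen store myoglobin, and Pgam2, the muscle phosphoglycerate mutase, were not called (log2 fold changes 2.37 and 0.56).

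Trim63 (chr4:134315120-134329629), also called MuRF1, marks muscle proteins for breakdown in atrophy. It was 0.0632, 0.174, 0.378, 0 and 0.0325 CPM in vehicle replicates 1 to 5 and 1.38, 2.6, 2.07, 0.0889 and 5.49 CPM in oxaliplatin replicates 1 to 5. Replicate 5 was highest of the treated libraries, then 2, then 3, an order shared with Myl2. Replicate 4 lay under vehicle replicates 2 and 3 (log2 fold change 4.13 ± 0.96, SE, n = 5 per group, adjusted p = 0.00584). Vehicle replicates 1, 4 and 5 held 2, 0 and 1 counts of Trim63, so its fitted fold change is no exact size.

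Levels per length ordered the members differently in the 2 marrow groups. In vehicle marrow the medians were led by Tpm2 at 14.9, Mylpf at 8.84, Pgam2 at 7.89 and Eno3 at 4.21 CPM per kilobase. In treated marrow Acta1 at 49.6, Tnnt3 at 25.7, Myh4 at 25.2 and Atp2a1 at 23.2 CPM per kilobase led. Neighbours in these orders overlapped in their 5 libraries in all but 1 of 33 pairs in each group. Fast-fibre members summed per length to between 3.34 and 10.2 times the slow-fibre members in vehicle libraries and to between 7.83 and 35.8 times in treated ones. Of 12 fast-fibre members 11 were tested and 8 rose, against 11.6% of all tested genes called higher. Of 6 slow-fibre members 4 were tested and 1 rose, Myl3, too few to set apart from that share. Slow Myh7, which was not tested, is among those with more counts in treated marrow, mostly from oxaliplatin replicate 3. The difference between the lists was not tested.

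Spread within groups was wide. The median within-group SD of log2 CPM was 1.32 over the tested members and 0.33 over all tested genes, and 21 of the 31 members lay above the 95th percentile of all tested genes. In kidney the medians were 0.37 and 0.21, and 1 of the 14 tested members lay above that percentile.

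Other genes of muscle were read from lists that hold none of the members. The background stands at 11.6% of tested genes called higher and 11.8% lower. Of 26 further sarcomere genes, 21 were tested, 10 rose and 0 fell. The most abundant was Tpm3, a tropomyosin of many cell types, and Tpm1, Ldb3, Cmya5 and Myom1 had the smallest p-values among those that rose (log2 fold changes 0.89, 3.40, 2.00 and 0.61). Of 21 genes of the muscle membrane and calcium release, 18 were tested and 13 rose, with Musk, Cacng1, Dmd and Jph2 foremost (2.55, 3.12, 1.43 and 2.63). Pvalb, parvalbumin of fast fibres and the most abundant of these in treated marrow, was 0.253, 0, 2.49, 0.228 and 2.79 CPM in vehicle replicates 1 to 5 and 10.3, 8.11, 40.3, 1.22 and 11.8 CPM in oxaliplatin replicates 1 to 5. Its treated replicate 3 was highest and replicate 4 lowest, as for most members. Of 15 further genes listed under energy, a list that also holds the ubiquitin ligase Fbxo32, 14 were tested, 5 rose and 2 fell. Fbxo32, Ampd1, Phkg1, Cox8b and Mylk2 rose, and Slc2a4 and Mss51 fell. The most abundant of these was Pfkm, the muscle phosphofructokinase, at 55.2 and 51.8 CPM on average, and it was not called. In kidney 34 of these 62 further muscle genes were tested, 6 rose and 2 fell, with a median log2 fold change of 0.26, against 7.68% and 3.8% of all tested genes called higher and lower.

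Genes of muscle precursors and immature fibres were low, with summed means of 1.15 and 2.72 CPM in vehicle and treated marrow. Of 11 such genes only Myh8, the perinatal heavy chain, passed the filter, and it rose by 2.04 on the log2 scale. It averaged 1.18 CPM in treated marrow, while no gene of this list averaged above 0.289 CPM in vehicle marrow. That is close to 0.287 CPM (10 counts in the median library). Myh8 may thus have passed the filter only through the treated group, and its rise is a description. Myf5 had no counts in any marrow library. Myod1, which drives muscle differentiation, had 0, 0, 1, 0 and 6 counts in vehicle replicates 1 to 5 and 10, 12, 22, 10 and 10 in oxaliplatin replicates 1 to 5. In CPM its groups did not overlap (at most 0.195 in vehicle and at least 0.222 with oxaliplatin), and it was too low to be tested. Myog, which acts after it, was at most 0.407 CPM and Pax7 of satellite cells at most 0.378 CPM. Against the same background of 11.6% higher and 11.8% lower, of 11 cardiac genes 8 were tested, 0 rose and 2 fell: Myl4 and Ryr2 (log2 fold changes -3.03 and -2.02). Of 9 smooth muscle genes all were tested and 2 rose, Mylk, the most abundant, and Synpo2, while Acta2 and Myh11, which define that muscle, were not called.

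Markers of other tissues moved too, in both marrow, where 11.6% of all tested genes were called higher, and kidney, where 7.68% were. In marrow all 11 adipocyte genes rose, among them Cidec, a fat droplet protein, and Fabp4, a fatty acid binding protein (log2 fold changes 7.58 and 2.93), and they summed to 179, 173, 132, 203 and 140 CPM in vehicle replicates 1 to 5 and 2658, 1247, 2763, 2962 and 616 CPM in oxaliplatin replicates 1 to 5. The most abundant was Cfd, the adipokine adipsin, in treated marrow, and no library of the treated group overlapped the vehicle group. Oxaliplatin replicate 4 was highest in this sum and replicate 5 lowest, unlike the order of the summed muscle members. In kidney 7 of 10 tested adipocyte genes rose, with Cidec and Fabp4 at 2.00 and 1.55 on the log2 scale. Tendon genes summed to 3.35, 4.65, 5.73, 3.25 and 3.86 CPM in vehicle replicates 1 to 5 and 21.8, 12.9, 21.3, 13.5 and 10.7 CPM in oxaliplatin replicates 1 to 5, with 3 of 6 called higher and Fmod, a tendon matrix protein, most abundant in treated marrow. Kera, of tendon and cornea, and Tnmd, a defining tendon gene, stayed at or under 0.252 CPM. Of 8 cartilage genes only Comp rose (log2 fold change 5.39), and it was 2.47, 2.03, 2.58, 2.14 and 2.11 CPM in vehicle replicates 1 to 5 and 92.1, 29.7, 144, 194 and 15.8 CPM in oxaliplatin replicates 1 to 5. Acan, Col9a1, Matn3 and Hapln1 of cartilage were at most 0.267 CPM in any marrow library. In kidney Comp rose by 1.37 on the log2 scale and Hapln1 fell, with 3.8% of all tested genes called lower. There 0 of 4 tested tendon genes were called.

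Genes of bone, endothelium and nerve are set beside the background of 11.6% of tested genes called higher and 11.8% lower in marrow, and 7.68% and 3.8% in kidney. Of 12 bone genes 10 were tested, 1 rose and 3 fell, while in kidney all 5 tested bone genes rose. Of 6 endothelial genes 2 rose, and their sums were 773, 621, 840, 902 and 714 CPM in vehicle replicates 1 to 5 and 1087, 767, 968, 1215 and 1029 CPM in oxaliplatin replicates 1 to 5. Vwf alone averaged 552 of 770 CPM in vehicle and 684 of 1013 CPM in treated marrow, so these sums rest mostly on 1 gene. In kidney 3 of the 6 endothelial genes rose. Of 6 Schwann cell and nerve genes 1 rose in marrow, Pmp22. The part that adipocyte, tendon or other cell types play in the values of the muscle members was not tested.

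**Figure D5:**
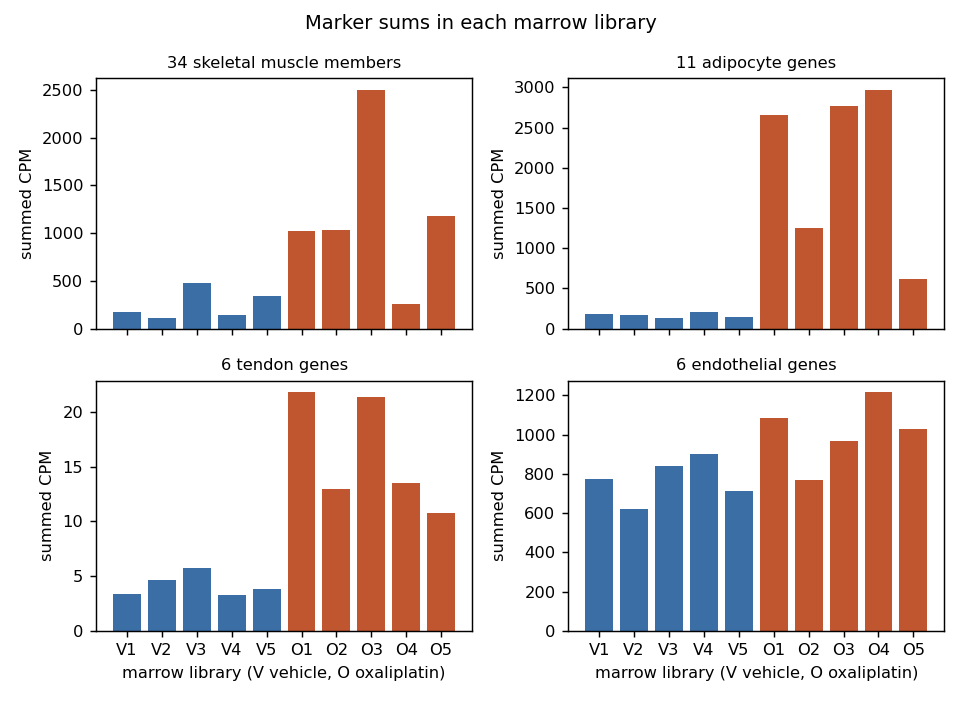
Summed CPM of the 34 muscle members, 11 adipocyte genes, 6 tendon genes and 6 endothelial genes in each marrow library; V and O with a number are vehicle and oxaliplatin replicates. Oxaliplatin replicate 4 is lowest of the treated libraries in muscle members (262 CPM) and highest in adipocyte genes (2962 CPM). Vwf makes up most of the mean endothelial sum in both groups.

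In kidney, 14 members passed the filter, 1 rose and 1 fell, against 7.68% and 3.8% of 19293 tested genes called higher and lower. At an unadjusted p under 0.05, 4 were higher against 20.5% of all tested genes, and 1 was lower against 20.2%. Atp2a1 was 0.335, 1.18, 0.604, 0.643 and 0.647 CPM in vehicle replicates 1 to 5 and 1.43, 1.14, 1.08, 1.44 and 1.68 CPM in oxaliplatin replicates 1 to 5, and the groups overlapped (log2 fold change 0.99 ± 0.30, SE, n = 5 per group, adjusted p = 0.0205). Without vehicle replicate 1 or oxaliplatin replicate 5 it was not called (adjusted p up to 0.0529). Tnnc1 was 2.12, 1.37, 4.36, 2.85 and 3.96 CPM in vehicle replicates 1 to 5 and 0.394, 1.75, 1.15, 1.33 and 0.749 CPM in oxaliplatin replicates 1 to 5, with 4 treated libraries under all vehicle libraries (log2 fold change -1.44 ± 0.37, SE, n = 5 per group, adjusted p = 0.00881). Tpm2 and Ttn had adjusted p-values of 0.00474 and 0.0249 with changes under 1.5-fold (log2 0.49 and 0.51), and 29.4% of all tested genes had an adjusted p under 0.05. Tpm2 was the only 1 of the 14 whose groups did not overlap with treated libraries higher, against 9.69% of all tested genes. A positive fold change was found for 11 of the 14, against 52.8% of all tested genes, and the median log2 fold change was 0.43 against 0.02.

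Most members were at or near 0 in kidney. Myh2 had no counts in any kidney library, and Myh4 and Acta1 were at most 0.395 and 1.20 CPM. Pgam2 led, at 58.3 CPM on average in vehicle and 59.9 in treated kidney. Trim63 was 6.9, 9.93, 8.93, 9.44 and 9.26 CPM in vehicle replicates 1 to 5 and 5.88, 8.74, 8.58, 6.69 and 6.68 CPM in oxaliplatin replicates 1 to 5. Pygm was 9.02, 10.3, 9.19, 6.07 and 11.2 CPM in vehicle replicates 1 to 5 and 8.64, 11.7, 10.9, 11.4 and 9.05 CPM in oxaliplatin replicates 1 to 5. In vehicle mice Pygm differed between kidney and marrow by 0.05 ± 0.28 (SE) in log2, while Trim63 was higher in kidney by 6.49 ± 0.71.

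Without drug, 19 of 32 members tested over all 20 libraries were higher in marrow than in kidney and 4 were higher in kidney, against 38.3% and 34.6% of 24321 tested genes. The 4 were Trim63, Pgam2, Tnnc1 and Myl3. The kidney minus marrow log2 differences of the first 3 were 6.49, 3.52 and 2.48. That of Trim63 has a base of 21 counts over the vehicle marrow libraries, and that of Myl3, with 3, is not given. The difference of Acta1 was -5.29. For Myh4, Mb and Ckm, with 4, 0 and 2 counts over the 5 vehicle kidney libraries, the fitted differences are not given.

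Whether the response to oxaliplatin differed between tissues was tested as the tissue by treatment interaction. It had adjusted p under 0.05 for 10 of 32 members (31.2%), against 30.1% of all tested genes, and all 10 changed more positively in marrow, as did 17.0% of all tested genes. The share of the members was near the background share. The kidney change minus the marrow change was -4.45 ± 0.88 (SE) in log2 for Trim63 (adjusted p = 0.000649) and -3.51 ± 0.81 for Actn2 (0.00208). The value of Trim63 rests on few vehicle marrow counts and is no exact size. The fitted value of Myl3 was -5.07 ± 0.90 (0.000175), but its marrow change has a base of 3 vehicle counts. It was -3.23 ± 0.80 for Actn3 (0.00444), -2.02 ± 0.53 for Tnnc1 (0.00568) and -1.30 ± 0.39 for Pygm (0.0148). For Acta1 (-1.41 ± 2.06) and Ttn (-1.88 ± 0.85) it was not past the threshold (adjusted p = 0.655 and 0.106).

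Genes whose pattern over the 10 marrow libraries was most like that of the members were found outside the set. Likeness was the Pearson r, after subtracting group means, of log2 CPM with the mean log2 CPM of the 31 tested members, among 15023 genes of at least 1 in average log2 CPM. It is a description, since the points share the same 10 libraries and their depth. The closest included Eef1a2 (r = 0.991), Nrap, Peg10, Pde4dip, Cmya5, Ufsp2, Myot, Hnrnpll, Tnxb, Flnc and Xirp2 (r = 0.917). Of these, Cmya5, Myot and Xirp2 are on the list of further sarcomere genes. Nrap and Flnc are also known from the ends and Z discs of muscle fibres, and Eef1a2 is the elongation factor isoform of muscle and nerve. Peg10, an imprinted gene, was 5.06, 4.07, 6.29, 4.53 and 5.42 CPM in vehicle replicates 1 to 5 and 18.4, 18.7, 24.3, 13 and 17.6 CPM in oxaliplatin replicates 1 to 5. Its treated libraries lay above all vehicle libraries, replicate 4 included.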

How the data were processed

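Per the labels, RNA was ribosome-depleted and random-primed, whereas the study's methods name the Clontech SMARTer method. Both name STAR for the alignment, and the study's methods name Ensembl as the reference and gene counts from uniquely aligned reads. The submitters' processing notes also name bcl2fastq, Subread featureCounts and Salmon, and the strand setting was not given in the sources used here. The authors deposited raw counts in 2 tables, 1 per tissue, with 10 libraries each; no other per-sample column was present. Of 55774 lines, 1 with a missing value and 287 repeats of an identifier were left out. Marrow RNA was extracted with TRIzol and a column, kidney RNA with a column alone.

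Counts were tested with edgeR 4.0.16 (R 4.3.3): filterByExpr with a minimum count of 10, TMM scaling, quasi-likelihood fit with robust estimation, treatment as the only term, each tissue fitted alone on its whole table. A gene was called at Benjamini-Hochberg adjusted p under 0.05 and a change over 1.5-fold. The interaction and the tissue contrast used all 20 libraries. SE was the log2 fold change over the root of the F value. DESeq2 1.42.0 was an alternative. On simulated data the test recovered 71% of 2-fold and 95% of 4-fold changes in marrow (21863 genes, 7 false calls), and 89% and 99% in kidney (18915 genes, 3 false calls). Those changes were planted in randomly drawn genes other than the low ones. Recovery was not measured for the members, whose median within-group SD of log2 CPM in marrow was 1.32 against 0.33 over all tested genes. Levels per length divide CPM by the exon union of GENCODE M21. Log2 CPM used a prior count of 2. Every pair of libraries within a group differed beyond sampling noise (chi-square per degree of freedom at least 6.83 in the closest pair).

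The members and lists were chosen with earlier results of these data known. Values in every library are printed for the member with the highest mean CPM of each role in marrow, for called members (at most 12 per tissue by smallest p), and for up to 6 members by the interaction test. Acta1, Pvalb, Comp and Peg10 were added after their values were seen. 1 gene that the rule on likeness names is not reported here. Other scalings, filters, DESeq2, a replicate block, a Y-linked covariate, stricter fold thresholds and each library left out were tried.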

Additional observations from a re-analysis of the deposited data

Results flagged for a closer look

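A value far from the other 4 of its group, by Dixon's ratio above 0.71, was seen in 13 of the 66 groups checked. The ratio was taken on CPM and not on log2 CPM. Chance gives about 1 in 20 for normally distributed values, which these skewed CPM are not. The 13 are therefore a description and cannot be read against that rate, and the members share the same libraries. In treated marrow all 8 such values were those of oxaliplatin replicate 3, the highest library: Acta1 at 257 CPM, Tpm2 at 129 CPM, Myl1 at 42.4 CPM, Myh2 at 33.6 CPM, Eno3 at 31.6 CPM, Casq1 at 11.7 CPM, Mb at 8.82 CPM and Myl3 at 2.19 CPM. In vehicle marrow all 5 were those of vehicle replicate 3, also the highest: Myh1 at 13.7 CPM, Myh2 at 5.10 CPM, Mybpc1 at 3.18 CPM, Tcap at 1.51 CPM and Actn2 at 1.26 CPM.

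Beside these, 10 members changed differently in the tissues by the interaction test at adjusted p under 0.05, which is 31.2% of the 32 tested and near the 30.1% of all 24321 tested genes. The kidney change minus the marrow change in log2 was -5.07 for Myl3 (a fitted value on a base of 3 vehicle marrow counts), -4.45 for Trim63, -3.93 for Tnni2, -3.92 for Cacna1s, -3.51 for Actn2, -3.39 for Myh7, -3.23 for Actn3, -2.02 for Tnnc1, -1.30 for Pygm and -1.08 for Eno3. Tnnc1 was the only 1 of these called lower in kidney. Trim63 and Cacna1s had 3 counts or fewer in several vehicle marrow libraries, so their values are no exact sizes. Myh7 passed the filter in neither tissue alone and had 15 counts over the vehicle marrow libraries (interaction adjusted p = 0.0498 by edgeR). Tnni2 had 18 counts over the vehicle and 9 over the treated kidney libraries. The values of Myh7 and Tnni2 are no exact sizes either.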

How the results depend on the processing

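The 23 marrow members called higher became 13 with no filter beyond 1 count, 13 of 18 tested with at least 10 counts in every library, 15 with a Y-linked covariate and 13 in a test against a 1.5-fold change. With 1 library left out the count ran from 12 to 28. It stayed between 22 and 25 with DESeq2, median ratio size factors, library size alone, muscle genes left out of the scaling, a 2-fold threshold and the replicate block. No setting called a member lower in marrow. The kidney count of 1 higher became 3 with DESeq2, 4 with library size alone, 4 with no filter, 2 with a Y-linked covariate, and 0 with at least 10 counts, in a test against 1.5-fold, or over 2-fold; with 1 library left out it ran from 0 to 4. The count of 1 lower became 0 in the test against 1.5-fold. The interaction count of 10 ran from 7 to 14, and the tissue contrast count of 23 from 20 to 26, whose alternatives were chosen after seeing the data. Signs turned for Myl2 in marrow (-0.26 with a Y-linked covariate) and Eno3 in kidney (0.13 with library size alone, 0.024 with at least 10 counts, 0.000222 with a Y-linked covariate, -0.094 to 0.072 with 1 library left out, above 0 without vehicle replicate 4 or oxaliplatin replicate 2 or 4); neither was called. The ratio of summed member CPM in kidney moved from 1.09 to 1.20 with library size alone, which shifted the median log2 change of all genes by 0.15 in marrow and 0.13 in kidney. The causes were not tested. Libraries with the same number correlated from -0.12 to 0.23 in marrow and from -0.15 to 0.08 in kidney after removal of group means, so the numbers were not taken to pair them; the replicate block called 25 members in marrow and 1 higher in kidney, and 4968 genes in place of 5221 in marrow. Depth limits members at or under 3 counts, a floor of 0.0667 to 0.0974 CPM in marrow and 0.0899 to 0.129 CPM in kidney.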

Other observations

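Fbxo32, atrogin-1, is the other ubiquitin ligase known from muscle atrophy beside Trim63. In marrow it was 9.74, 10.3, 9, 9.11 and 9.44 CPM in vehicle replicates 1 to 5 and 19.9, 21.6, 18.6, 16.3 and 22.4 CPM in oxaliplatin replicates 1 to 5. Its treated libraries lay close together and above all vehicle libraries, replicate 4 included, and the rise was 1.05 ± 0.11 (SE, n = 5 per group) on the log2 scale with an adjusted p of 1.42e-05 by edgeR. Slc2a4, the insulin-responsive glucose transporter of muscle and fat, was 49.1, 46.7, 47.2, 40.5 and 32.1 CPM in vehicle replicates 1 to 5 and 22.3, 11.6, 22.2, 24.5 and 7.81 CPM in oxaliplatin replicates 1 to 5. All treated libraries lay below all vehicle libraries, and the log2 fold change was -1.29 ± 0.28 (SE, n = 5 per group) with an adjusted p of 0.00366 by edgeR. Myl4, a light chain of atrial and embryonic muscle, was 15, 16.3, 8.59, 15.8 and 11.6 CPM in vehicle replicates 1 to 5 and 1.93, 1.47, 2.3, 1.09 and 1.4 CPM in oxaliplatin replicates 1 to 5, also without overlap between the groups. Mylk, the myosin light chain kinase of smooth muscle and other cells, was 77.5, 65.6, 83.1, 83.8 and 73.1 CPM in vehicle replicates 1 to 5 and 255, 189, 212, 280 and 274 CPM in oxaliplatin replicates 1 to 5, and here oxaliplatin replicate 4 was highest.

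The genes most like the members over the 10 marrow libraries included some that were not called between the groups. Pde4dip, with r = 0.945, had a log2 fold change of 0.02, and Hnrnpll, with r = 0.928, one of 0.02.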
